A study of Homo sapiens with 5 samples.

Results

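The replication-dependent histone genes were described in 5 RNA sequencing libraries of HL60, an established human promyelocytic leukaemia line obtained from ATCC. Members were the protein-coding genes of GENCODE release 29 whose symbol starts with HIST1H, HIST2H, HIST3H or HIST4H and whose Ensembl ID is in the deposited count table. They numbered 36 of the 51055 gene IDs in the table; the other 35 of the 71 genes that the symbols pick out in GENCODE have no ID among those used and were not analysed here. By protein family the members were 6 H1, 9 H2A, 10 H2B, 7 H3 and 4 H4 genes. By cluster, 23 belonged to HIST1 on chromosome 6, 9 to HIST2 and 3 to HIST3 on chromosome 1, and 1 to HIST4 on chromosome 12.

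The study compared 1 library of untransduced cells (UNT), 2 of cells carrying the control lentivector (SCR) and 2 of cells carrying a lentivector that encodes a hairpin antisense to the microRNA miR-378a-3p (ZIP). The control vector is named scramble in 1 place of the labels and empty in another. Both vectors carry green fluorescent protein, and both transduced groups, unlike UNT, were infected with polybrene (8 µg/mL) at a multiplicity of 20 and then selected with puromycin (2 µg/mL, day 3 to day 8). The comparison of ZIP with SCR addresses the antisense hairpin, that of SCR with UNT addresses transduction and selection with the control vector, and that of ZIP with UNT addresses both together. Nothing in the labels says that the libraries of a group were grown as separate cultures, and the p-values reflect only how far these libraries vary, possibly for technical reasons, and UNT has no replicate.

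Replication-dependent histones package newly made DNA: H2A, H2B, H3 and H4 form the nucleosome core, and H1 binds the linker DNA between cores. Their genes are transcribed mainly in S phase, under NPAT and the cyclin E kinase, and most of their mRNAs end not in a poly(A) tail but in a conserved stem-loop that is bound by the stem-loop binding protein SLBP. Some of the genes also give polyadenylated mRNA, which is known from differentiating and non-dividing cells.

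Library totals were 24406580 to 30925067 counts, and 22066 to 23766 genes had a count. Within groups, counts differed by a mean chi-square per gene of 2.47 (SCR) and 1.79 (ZIP), against 77.3 to 134 across groups. At these totals, 3 counts correspond to 0.0979 to 0.125 CPM (counts-per-million on the TMM-scaled library size), so low members were poorly resolved. The gene of the targeted microRNA, MIR378A, had 0 counts in UNT, SCR 1, SCR 2 and ZIP 1 and 2 in ZIP 2, and the count of a precursor gene is no check of an antisense hairpin. The 8 markers of promyelocytes, the labelled cell type, were detected at a summed 27678 CPM in UNT, 14357 and 14324 in SCR, and 27056 and 26400 in ZIP.

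Sequence around the stem-loop is shown for the 4 members known also to give polyadenylated mRNA whose transcript model reaches it, and for HIST1H2AG, which had the highest mean CPM of the other members with the stem-loop in their model, because the position of the stem-loop shows how far a model runs beyond the usual histone mRNA end. Capitals mark the 16-base stem-loop, found as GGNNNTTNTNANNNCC with 6 pairing bases, in GENCODE 29 transcripts, 5′ to 3′.
HIST2H2BE: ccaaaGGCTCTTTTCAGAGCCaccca
HIST1H2AC: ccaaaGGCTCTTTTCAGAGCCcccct
HIST1H2BD: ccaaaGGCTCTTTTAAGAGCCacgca
HIST1H4H: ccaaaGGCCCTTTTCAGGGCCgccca
HIST1H2AG: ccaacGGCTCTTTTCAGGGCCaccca
HIST2H2BE and HIST1H2AC carried the same 16 letters. HIST2H2BE, HIST1H2AC and HIST1H2AG had 1729, 1114 or 1128, and 1761 bases of transcript after the stem-loop, whereas 1 model of HIST1H2BD stopped 39 bases after it. Models of HIST1H4H ran 18 to 1655 bases beyond it. The motif was found in 18 of the 24 members whose model includes untranslated sequence (75%), and in 140 of 19922 protein-coding genes (0.703%). The models of the other 12 members, HIST1H1C and HIST1H2BK among them, end at the stop codon, so that the stem-loop lies outside what could be counted for them if this annotation was the one used.

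Promoters are shown for the 2 members with the highest levels and for HIST2H2BE, because these 3 followed different patterns over the libraries. Each runs from 250 bases before to 50 bases after the RefSeq start (GRCh38.p14), 5′ to 3′ on the gene's strand, which is the minus strand for all 3. They lie at chr6:26056421-26056720 (HIST1H1C), chr1:149886633-149886932 (HIST2H2BE) and chr6:27146809-27147108 (HIST1H2BK). Capitals mark matches on either strand to the TATA box (TATAAA), the CCAAT box (written as CCAAT), the octamer bound by POU2F1 (ATTTGCAT) and the H1 box (AAACACA).
HIST1H1C: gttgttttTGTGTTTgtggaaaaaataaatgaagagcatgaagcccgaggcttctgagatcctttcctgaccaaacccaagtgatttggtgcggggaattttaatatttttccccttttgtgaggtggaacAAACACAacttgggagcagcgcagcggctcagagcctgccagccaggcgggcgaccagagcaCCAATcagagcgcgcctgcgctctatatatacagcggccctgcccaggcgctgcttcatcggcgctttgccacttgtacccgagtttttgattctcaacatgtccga
HIST2H2BE: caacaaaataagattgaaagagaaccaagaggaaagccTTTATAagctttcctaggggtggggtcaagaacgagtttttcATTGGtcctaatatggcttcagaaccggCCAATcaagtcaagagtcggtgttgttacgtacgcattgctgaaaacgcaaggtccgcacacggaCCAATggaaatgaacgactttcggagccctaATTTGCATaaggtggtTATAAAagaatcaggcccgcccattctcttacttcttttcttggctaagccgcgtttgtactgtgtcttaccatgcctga
HIST1H2BK: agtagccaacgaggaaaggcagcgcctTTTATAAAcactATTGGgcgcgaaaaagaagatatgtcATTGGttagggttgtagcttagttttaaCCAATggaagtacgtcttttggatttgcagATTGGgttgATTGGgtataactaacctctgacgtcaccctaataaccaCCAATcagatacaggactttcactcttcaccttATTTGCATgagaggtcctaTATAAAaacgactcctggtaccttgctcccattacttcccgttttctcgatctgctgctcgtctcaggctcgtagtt
HIST1H1C held H1 boxes at -242 and -119 and a CCAAT at -57 from the start, and no exact TATAAA or octamer within this window. Only the exact letters were searched, so near matches were left unmarked, among them the tatatata of HIST1H1C. Both H2B promoters held the octamer at -46, with TATAAA at -30 in HIST2H2BE and at -27 in HIST1H2BK. HIST2H2BE held 3 CCAAT sites (-170, -142 and -77) and HIST1H2BK held 6. Of the 36 members 32 had a RefSeq promoter. TATAAA was in 22 of these 32 (68.8%) against 11.5% of all 35116 promoters, CCAAT in 29 (90.6%) against 34.6%, the octamer in 13 (40.6%) against 1.77% and the H1 box in 9 (28.1%) against 5.64%. The H1 box was in 6 of 6 H1, 1 of 8 H2A, 0 of 10 H2B, 2 of 5 H3 and 0 of 3 H4 promoters. The octamer was in 0 of 6 H1, 6 of 8 H2A, 6 of 10 H2B, 1 of 5 H3 and 0 of 3 H4 promoters. Windows of gene pairs that share a promoter region overlap and are not independent, and some motif sites overlap each other.

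Summed over all 36 members, histone mRNA was highest in both SCR libraries. The sum was 37.2 CPM in UNT, 71.0 and 73.6 in SCR, and 32.9 and 34.2 in ZIP. Both SCR libraries were above both ZIP libraries and UNT, and the ZIP libraries lay a little below UNT. Means were 72.3 ± 1.8 (SD, n = 2) in SCR and 33.6 ± 0.876 (SD, n = 2) in ZIP, a ratio of 0.464 for ZIP over SCR, with a 2-sided exact permutation p = 0.3333, the smallest that 2 against 2 libraries allow. Ratios to the single UNT library were 1.94 for SCR and 0.902 for ZIP. On library totals, in raw CPM with exact 95% intervals that cover counting error only, the sums were 35.6 (33.3 to 38.0) in UNT, 73.5 (70.1 to 76.9) and 75.8 (72.4 to 79.3) in SCR, and 32.6 (30.6 to 34.7) and 33.9 (31.6 to 36.3) in ZIP. In bulk libraries, fewer cells that make an mRNA and less of it per cell cannot be told apart.

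The sum rested largely on HIST1H1C and HIST1H2BK. Without HIST1H1C it was 33.3 CPM in UNT, 44.3 and 46.3 in SCR and 26.5 and 28.0 in ZIP. SCR then stood at 1.36 times UNT and ZIP at 0.819 times UNT. Without HIST1H2BK as well it was 13.1, 30.4 and 32.8, and 16.7 and 18.7 CPM, so that both ZIP libraries were above UNT. Of the 36 members 27 had a count and 9 had none in any library, among them the testis genes HIST1H1T and HIST1H2BA. Also without a count were HIST2H2AA3, HIST2H3A, HIST2H3C and HIST2H3PS2, whose 50-base windows all occur in other annotated transcripts. Whether reads that match several genes were left out of the counts was not tested.

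**Figure D1:**
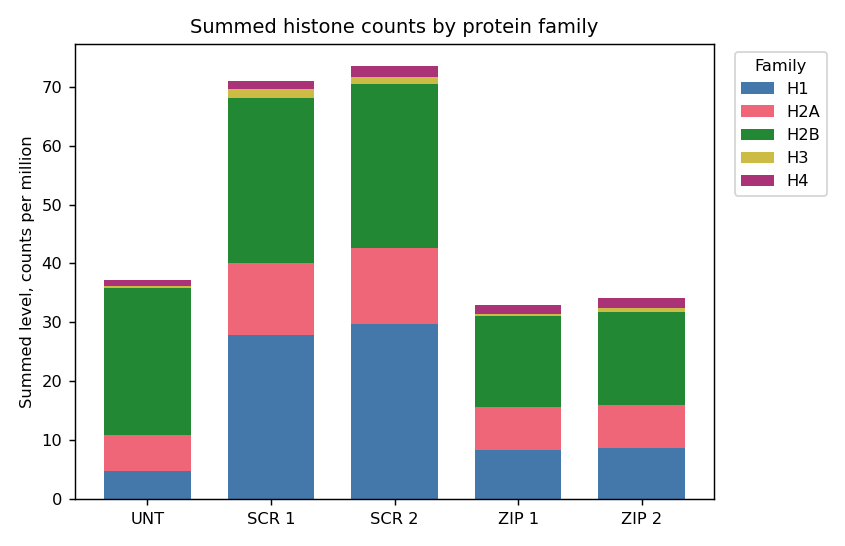
Summed level of the 36 histone members in CPM (vertical axis, from 0) in each of the 5 libraries (horizontal axis), divided by protein family (colours). The H1 part is 27.9 and 29.7 CPM in SCR 1 and SCR 2 against 4.67 in UNT and 8.36 and 8.68 in ZIP. H3 and H4 are thin in every library, with genes that have no ID in the count table left out.

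The families differed in summed level over the members with an ID in the count table. H1 genes summed to 4.67 CPM in UNT, 27.9 and 29.7 in SCR and 8.36 and 8.68 in ZIP, and HIST1H1C made up most of it in every library. H2A genes summed to 6.26 CPM in UNT, 12.1 and 12.9 in SCR and 7.22 and 7.19 in ZIP. H2B genes summed to 24.9 CPM in UNT, 28.1 and 27.8 in SCR and 15.4 and 16 in ZIP. SCR was highest in these 3 families, and UNT lay below ZIP for H1 and H2A but above it for H2B. Without HIST1H2BK the H2B sum was 4.67, 14.1 and 14.2, and 5.62 and 6.61 CPM. H3 genes gave only 0.459 CPM in UNT, 1.54 and 1.32 in SCR and 0.457 and 0.537 in ZIP, with SCR again highest. H4 genes gave 0.959 to 1.87 CPM, and there SCR and ZIP overlapped. These sums leave out the genes without an ID, HIST1H3B and HIST1H4B among them, so they are not levels of whole families. Of the H3 members, HIST2H3A, HIST2H3C and HIST2H3PS2 had no count, and all their 50-base windows occur in other annotated transcripts.

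In SCR against UNT, 10 of the 20 members tested rose and 1 fell, by edgeR's quasi-likelihood test at a Benjamini-Hochberg adjusted p under 0.05 over all 15832 genes tested. Over all those genes 32.7% rose and 32.2% fell, and 14 members were under an unadjusted 0.05. Each of the 10 members that rose did so at least 2-fold, against 14.5% of all genes. Among them, HIST1H1D was kept by the filter on low counts only with SCR 2, where it had 10 counts. Its rise is therefore not independent of the filter. The member that fell, HIST1H2BK, fell less than 2-fold, and 5.86% of all genes fell 2-fold or more. The median log2 difference of the 20 members was 1.22 (1.10 with HIST1H1D, which had no count in UNT, at its lower bound), against 0.02 over all genes. DESeq2's Wald test, run on 27 members, called 4 of them higher: HIST1H1C, HIST2H2BE, HIST1H2BD and HIST1H2AC. Over all genes it called 3771 of 29050 higher.

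In ZIP against SCR, 0 of the 18 members tested rose and 9 fell by edgeR's quasi-likelihood test, against 32.2% and 33.2% of all 14643 genes tested. Of the 9, 7 fell at least 2-fold, which 11.0% of all genes did, and 3.13% of all genes rose that far. At an unadjusted 0.05, 10 members differed. The SCR and ZIP libraries did not overlap for 13 of the 18 members, against 81.0% of all genes. ZIP was the lower group without overlap for 12 of the 18, against 40.9% of all genes. The median log2 difference was -0.55, against -0.00 over all genes. DESeq2 called 6 of 27 members lower, and 3643 of 28493 over all genes. Of the 9 members that fell 8 had also risen in SCR against UNT; the comparisons share both SCR libraries, so this overlap is not independent. The other, HIST1H2BK, was lower in both.

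In ZIP against UNT, 3 of the 20 members tested rose (HIST1H1C, HIST1H1E and HIST1H2BD) and 1 fell (HIST1H2BK), against 28.5% and 29.7% of all genes tested. At least 2-fold, 1 member rose, against 8.70% of all genes, and 1 fell, against 5.19%. At an unadjusted 0.05, 5 members differed, and the median log2 difference was 0.47 (0.39 with HIST1H1D at its bound), against 0.00 over all genes. Of 27 members, DESeq2 called HIST1H1C higher and HIST1H2BK lower, against 3105 higher and 2851 lower of 29050 over all genes. The other members that fell in ZIP against SCR did not pass the test against UNT, which does not show that they were equal there.

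**Figure D2:**
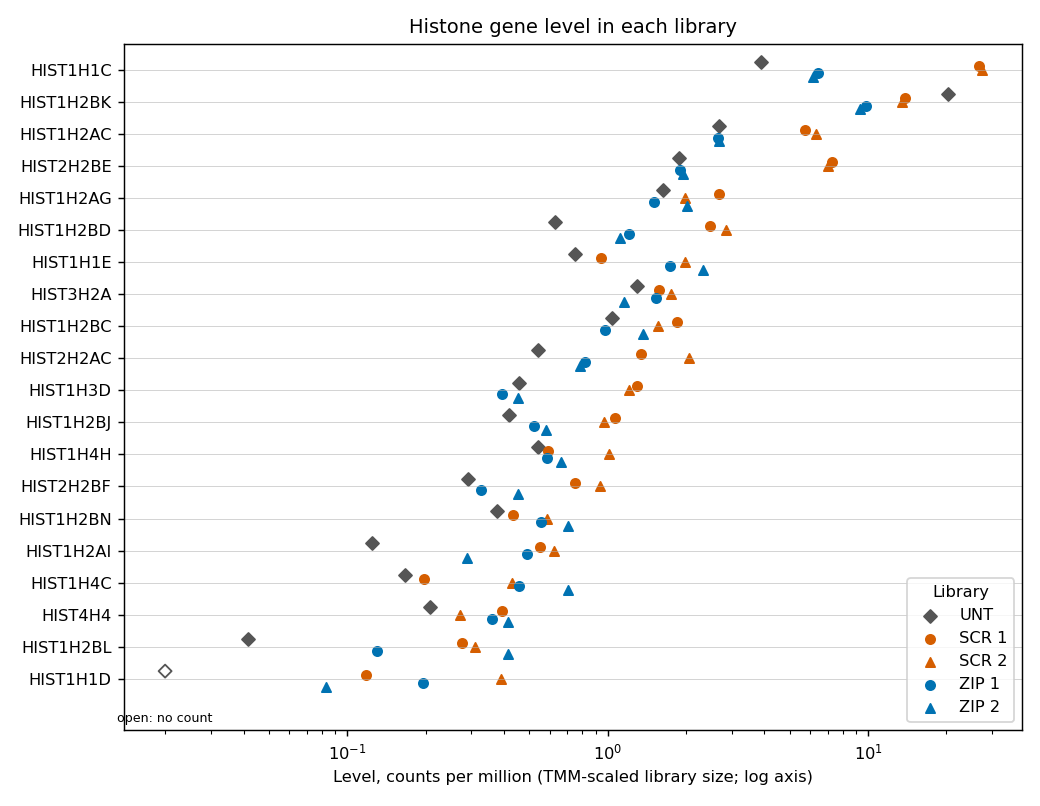
Level of the 20 histone members with the highest mean (vertical axis) in CPM on a log axis (horizontal), with 1 point per library, coloured by group, shaped by library and open at the left edge where there was no count. For HIST1H1C and HIST2H2BE both SCR points lie above the ZIP and UNT points, while for HIST1H2BK the UNT point is the highest at 20.2 CPM.

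Among the linker histones, HIST1H1C (H1.2; ENSG00000187837, chr6:26055787-26056428, minus strand) carried the largest difference in the family. It had 93 counts in UNT, 678 and 702 in SCR and 196 and 149 in ZIP, which is 3.88, 26.7 and 27.3, and 6.40 and 6.16 CPM. SCR was highest by a wide margin, ZIP intermediate and UNT lowest, with no overlap. HIST1H1C rose 6.955-fold in SCR against UNT (log2 2.80 ± 0.12 SE, adjusted p = 1.8e-15) and fell 4.287-fold in ZIP against SCR (log2 -2.10 ± 0.08 SE, adjusted p = 5.0e-15). ZIP stayed 1.621-fold above UNT (adjusted p = 0.00051). None of its 50-base windows occurs in another annotated transcript.

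HIST1H1E (H1.4; ENSG00000168298) had 18 counts in UNT, 24 and 51 in SCR and 53 and 56 in ZIP, or 0.751, 0.946 and 1.98, and 1.73 and 2.31 CPM. UNT and SCR 1 were low and the other 3 libraries high, so that SCR and ZIP overlapped. It rose 2.645-fold in ZIP against UNT (log2 1.40 ± 0.40 SE, adjusted p = 0.0046 by edgeR and 0.0695 by DESeq2) and did not pass in ZIP against SCR (log2 0.44 ± 0.27 SE, adjusted p = 0.16). That value rested on the SCR 2 library: without it HIST1H1E passed as higher in ZIP than in SCR (log2 1.07, adjusted p = 0.0035). In SCR against UNT it missed the threshold (adjusted p = 0.054) and passed without SCR 1 (0.0019), without ZIP 2 (0.0152), with library totals (0.0292) or without the filter (0.0327). HIST1H1D (H1.3) had 0 counts in UNT, 3 and 10 in SCR and 6 and 2 in ZIP. It passed in SCR against UNT by edgeR with UNT at 0 counts (adjusted p = 0.028). With UNT set to a floor of 3 counts it was at least 2.03-fold higher in SCR, a ratio that was not itself tested. HIST1H1D fell under the filter on low counts without SCR 2, without ZIP 1 or with only the 2 groups compared, and DESeq2 gave it no adjusted p. Without HIST1H1C the H1 sum was 0.792 CPM in UNT, 1.18 and 2.41 in SCR and 1.96 and 2.52 in ZIP, and SCR and ZIP overlapped.

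Of the core histones, the H2A gene HIST1H2AC (ENSG00000180573, chr6:26124145-26139116, plus strand) had 64 counts in UNT, 145 and 162 in SCR and 81 and 65 in ZIP, or 2.67, 5.71 and 6.30, and 2.64 and 2.69 CPM. Both SCR libraries were high, and UNT lay between the ZIP libraries. It rose 2.248-fold in SCR against UNT (log2 1.17 ± 0.18 SE, adjusted p = 6.9e-06) and fell 2.252-fold in ZIP against SCR (log2 -1.17 ± 0.14 SE, adjusted p = 4.8e-07). HIST2H2AC (ENSG00000184260, chr1:149886975-149887364, plus strand) had 13 counts in UNT, 34 and 53 in SCR and 25 and 19 in ZIP. SCR was above ZIP and UNT, with SCR 2 the highest. It rose 3.12-fold (adjusted p = 0.0011) and then fell 2.114-fold in ZIP against SCR (adjusted p = 0.0021), a call lost without SCR 2 (0.0961) and by DESeq2 (0.0719). DESeq2 gave 0.0530 in SCR against UNT.

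HIST1H2AI had 3 counts in UNT, 14 and 16 in SCR and 15 and 7 in ZIP, or 0.125, 0.552 and 0.622, and 0.490 and 0.289 CPM. UNT was lowest and both SCR libraries were above both ZIP libraries in CPM, though it did not pass in ZIP against SCR (adjusted p = 0.26). It passed in SCR against UNT (adjusted p = 0.016 by edgeR, 0.154 by DESeq2), with a ratio of 4.69 (exact 95% counting interval 1.46 to 24.0). Of its 50-base windows 62.3% are shared with HIST1H2AJ, so reads may be split. HIST1H2AG and HIST3H2A passed in none of the 3 comparisons. HIST1H2AG was at 1.63 CPM in UNT, 2.68 and 1.98 in SCR and 1.5 and 2.03 in ZIP, where the groups overlapped. In ZIP against SCR its adjusted p of 0.098 became 0.0300 without SCR 2 and 0.0444 without ZIP 2, and in SCR against UNT 0.11 became 0.0370 without SCR 2. HIST3H2A was at 1.16 to 1.75 CPM in all 5 libraries.

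Among the H2B genes, HIST1H2BK (ENSG00000197903, chr6:27146418-27146798, minus strand) went a different way from most members. It had 484 counts in UNT, 353 and 348 in SCR and 301 and 226 in ZIP, or 20.2, 13.9 and 13.5, and 9.83 and 9.34 CPM. UNT was highest, SCR intermediate and ZIP lowest, with no overlap. It fell in SCR against UNT (log2 -0.56 ± 0.09 SE, adjusted p = 1.0e-05) and in ZIP against SCR (log2 -0.51 ± 0.09 SE, adjusted p = 2.3e-05), and ZIP was 2.101-fold below UNT (adjusted p = 1.6e-09). Of its 50-base windows 74.1% occur in other annotated transcripts, so its counts are uncertain; its near copy H2BFS had 0 to 3 counts per library.

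HIST2H2BE (ENSG00000184678, chr1:149884459-149886652, minus strand) had 45 counts in UNT, 184 and 181 in SCR and 58 and 47 in ZIP, or 1.88, 7.25 and 7.04, and 1.89 and 1.94 CPM. Both SCR libraries were high, and the ZIP values were close to the UNT value. It rose 3.799-fold in SCR against UNT (log2 1.93 ± 0.19 SE, adjusted p = 6.9e-09) and fell 3.72-fold in ZIP against SCR (log2 -1.90 ± 0.15 SE, adjusted p = 4.8e-10). The difference between ZIP and UNT was 0.03 ± 0.24 SE on the log2 scale.

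HIST1H2BD (ENSG00000158373, chr6:26158146-26171349, plus strand) had 15 counts in UNT, 63 and 73 in SCR and 37 and 27 in ZIP, or 0.626, 2.48 and 2.84, and 1.21 and 1.12 CPM. SCR was highest and ZIP intermediate, with no overlap. It rose 4.229-fold in SCR against UNT (adjusted p = 5.9e-06) and fell 2.274-fold in ZIP against SCR (adjusted p = 5.5e-05). Its rise in ZIP against UNT was at the threshold (log2 0.89 ± 0.38 SE, adjusted p = 0.047) and was lost without SCR 1 (0.0533), SCR 2 (0.0548) or ZIP 1 (0.124), with UNT and ZIP alone (0.0690), without the filter on low counts (0.0645) and by DESeq2 (0.263).

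HIST1H2BJ and HIST2H2BF were lower and less certain. HIST1H2BJ had 10 counts in UNT, 27 and 25 in SCR and 16 and 14 in ZIP, and rose 2.423-fold in SCR against UNT (adjusted p = 0.022) and fell 1.85-fold in ZIP against SCR (adjusted p = 0.020). The groups did not overlap, but the call in ZIP against SCR was lost when any 1 library was left out (0.130 without SCR 1, 0.0673 without SCR 2, 0.115 without ZIP 1 and 0.0585 without ZIP 2) and by DESeq2 (0.270), and that in SCR against UNT without SCR 1 (0.0732) and by DESeq2 (0.239). HIST2H2BF (ENSG00000203814, chr1:149782689-149812373, minus strand) had 7 counts in UNT, 19 and 24 in SCR and 10 and 11 in ZIP. It rose 2.851-fold (adjusted p = 0.022) and fell 2.179-fold in ZIP against SCR (adjusted p = 0.013), again without overlap. The fall was lost without SCR 2 (0.142), without ZIP 1 (0.134) and by DESeq2 (0.216), and the rise without SCR 2 (0.0974) and by DESeq2 (0.225).

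Its exons overlap by 177 bases those of FCGR1A, an Fc receptor gene on the other strand, which stood at 2.21 CPM in UNT, 19.9 and 22.7 in SCR and 3.79 and 3.93 in ZIP. Whether counting used strand was not given in the sources used here, and the part of FCGR1A reads in the HIST2H2BF counts was not tested. HIST1H2BC was at 1.04 CPM in UNT, 1.85 and 1.56 in SCR and 0.980 and 1.36 in ZIP. SCR lay above both ZIP libraries and UNT, yet it passed in no comparison (adjusted p = 0.064 in SCR against UNT and 0.054 in ZIP against SCR). It passed with library totals in place of TMM (0.0324 and 0.0344) and without ZIP 2 (0.0495 and 0.0308). HIST1H2BN, at 0.375 to 0.703 CPM, passed in none. HIST1H2BL had 1 count in UNT, 7 and 8 in SCR and 4 and 10 in ZIP, and was not tested in ZIP against SCR. It missed the threshold in SCR against UNT (0.068) and ZIP against UNT (0.10), and passed in both without ZIP 1 (0.0458 and 0.0309).

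The H3 genes were represented by HIST1H3D (ENSG00000197409, chr6:26196840-26197250, minus strand), the only one tested. It had 11 counts in UNT, 33 and 31 in SCR and 12 and 11 in ZIP. SCR was high, and UNT was within 1 count of both ZIP libraries. It rose 2.712-fold in SCR against UNT (adjusted p = 0.0064 by edgeR, 0.155 by DESeq2) and fell 2.96-fold in ZIP against SCR (adjusted p = 0.00028). All of its exonic bases are also annotated to AL031777.3 on the same strand. AL031777.3 has no entry among the gene IDs used, so a division of reads between the genes could not be seen. Whether the HIST1H3D counts include reads from AL031777.3 transcripts was not tested.

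No H4 gene passed in any comparison. HIST1H4H was at 0.542 CPM in UNT, 0.591 and 1.01 in SCR and 0.588 and 0.661 in ZIP, with overlap. HIST1H4C had 4 counts in UNT, 5 and 11 in SCR and 14 and 17 in ZIP, the only tested H4 gene with both ZIP libraries above both SCR libraries. Its adjusted p in ZIP against UNT was 0.052 and passed with library totals (0.0436), without the filter (0.0330), without SCR 1 (0.0477) or without ZIP 1 (0.0456). HIST4H4 had 5 to 11 counts per library. Differences of the sizes seen here were not resolved at these counts. The 9 members that were counted but not tested in ZIP against SCR had totals of 2 to 30 counts over the 5 libraries. All 18 untested members together had 3 counts in UNT, 33 and 32 in SCR and 22 and 25 in ZIP.

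**Figure D3:**
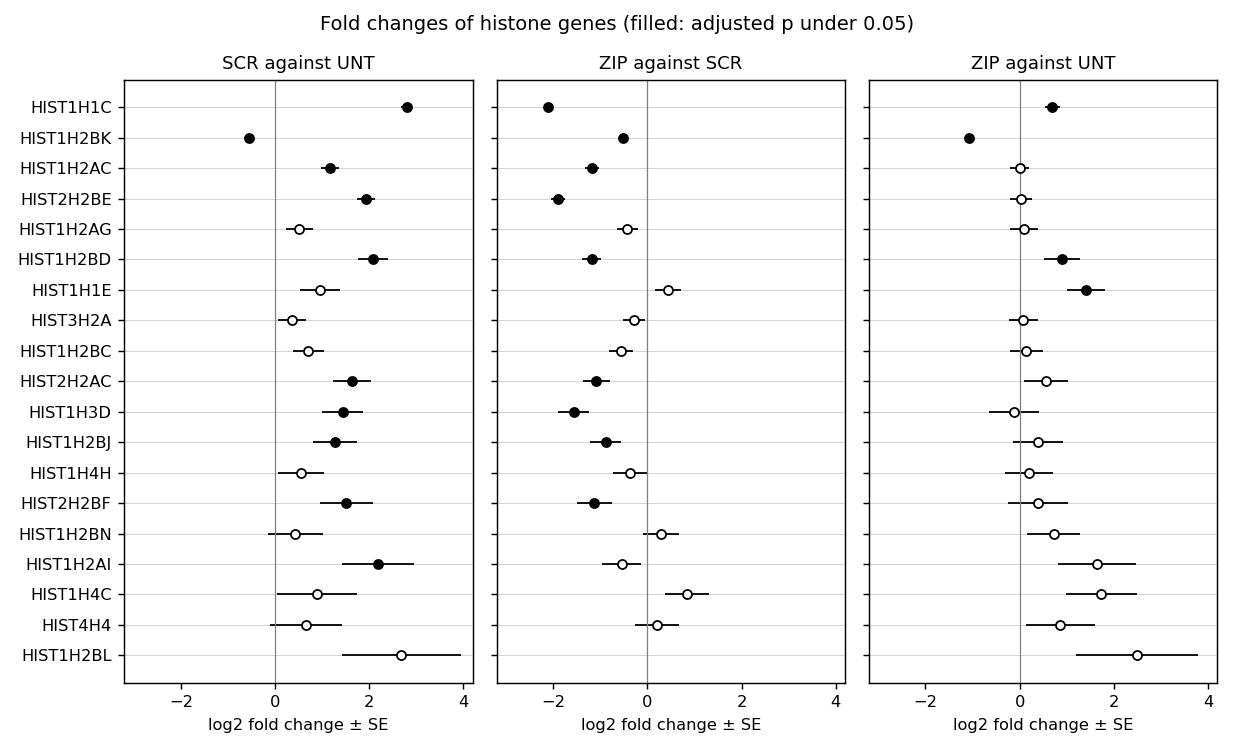
Log2 fold change ± SE (horizontal axis) of 19 histone members (vertical axis) in 3 panels, 1 per comparison, with filled points for an adjusted p under 0.05, HIST1H1D left out and HIST1H2BL not tested in ZIP against SCR. HIST1H1C and HIST2H2BE lie at 2.80 and 1.93 in SCR against UNT and at -2.10 and -1.90 in ZIP against SCR, and HIST1H2BK is below 0 in all 3.

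Several H2A and H2B genes lie head to head with starts no more than 500 bases apart. In the pair HIST2H2BE and HIST2H2AC (starts 323 bases apart) both members rose in SCR against UNT and fell in ZIP against SCR. In the pair HIST1H2BC and HIST1H2AC (219 bases) only HIST1H2AC passed in either comparison. In the pair HIST1H2BJ and HIST1H2AG (292 bases) only HIST1H2BJ passed. In the pair HIST1H2BL and HIST1H2AI (268 bases) HIST1H2AI passed in SCR against UNT. Differences between the members of a pair were not tested. HIST3H2A and HIST3H2BB (234 bases) were unequal in level, with 28 to 47 counts per library for HIST3H2A and 0 or 1 for HIST3H2BB.

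Compared per length of annotated exon (RPKM), HIST1H2BK and HIST1H1C had the highest levels, with means over the 5 libraries of 35.1 and 21.9 RPKM, and HIST2H2AC followed at 2.84. HIST1H1C was at 6.04 RPKM in UNT, 41.6 and 42.5 in SCR and 9.97 and 9.59 in ZIP. HIST1H2BK was at 53.0 RPKM in UNT, 36.5 and 35.5 in SCR and 25.8 and 24.5 in ZIP. HIST1H1C was thus above HIST1H2BK only in the SCR libraries. A long model, such as that of HIST2H2BE, gives a lower value for the same number of counts.

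Polyadenylated mRNA is known as well from HIST1H1C, HIST1H2AC, HIST1H2BD, HIST1H2BK, HIST1H4H and HIST2H2BE. Together these 6 were at 29.8 CPM in UNT, 56.7 and 58.0 in SCR and 22.6 and 21.9 in ZIP. They made up 80.0% of the member counts in UNT, 79.8% and 78.8% in SCR and 68.5% and 64.1% in ZIP. The other 30 members summed to 7.42 CPM in UNT, 14.4 and 15.6 in SCR and 10.4 and 12.3 in ZIP. Both sets were highest in SCR, and for the other 30 members ZIP lay between UNT and SCR. Of the 6, 4 rose and 1 fell in SCR against UNT (32.7% and 32.2% of all genes), 0 rose and 5 fell in ZIP against SCR (32.2% and 33.2%), and 2 rose and 1 fell in ZIP against UNT (28.5% and 29.7%). Whether the libraries were made from poly(A)-selected RNA was not given in the sources used here, and its part in these shares was not tested.

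Sequence sharing and overlap marked out 14 members, 10 with over 50% of 50-base windows shared and 9 with an overlapping exon. The others were not free of shared windows, which made up 30.5% in HIST2H2AC. Among the other 22, chosen after the data were seen, 7 of 15 tested rose and 0 fell in SCR against UNT, against 32.7% and 32.2% of all genes. In ZIP against SCR, 0 of 13 rose and 6 fell, against 32.2% and 33.2%. In ZIP against UNT, 3 of 15 rose and 0 fell, both under the 28.5% and 29.7% of all genes.

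Histone variants that are made also outside S phase were mixed. Of 11 tested, 4 rose and 5 fell in SCR against UNT (32.7% and 32.2% of all genes). In ZIP against SCR 1 rose and 5 fell (32.2% and 33.2%), and in ZIP against UNT 2 rose and 6 fell (28.5% and 29.7%). H1F0, the linker variant H1.0 of non-dividing and differentiated cells, was at 2.13 CPM in UNT, 23.7 and 27.3 in SCR and 1.8 and 2.03 in ZIP. SCR was far above the other 3 libraries. It rose in SCR against UNT (log2 3.58 ± 0.16 SE, adjusted p = 2.8e-15) and fell in ZIP against SCR (log2 -3.75 ± 0.12 SE, adjusted p = 3.5e-16). H3F3B, which encodes H3.3, was at 374 CPM in UNT, 669 and 671 in SCR and 522 and 514 in ZIP, and H2AFY, which encodes macroH2A, at 267, 447 and 445, and 325 and 329 CPM. Both were highest in SCR and intermediate in ZIP. H2AFZ, which encodes H2A.Z, was highest in UNT at 695 CPM, against 538 and 533 in SCR and 570 and 556 in ZIP.

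Factors of histone gene transcription were mixed. Of 14 tested, 6 rose and 4 fell in SCR against UNT (32.7% and 32.2% of all genes). In ZIP against SCR 2 rose and 8 fell (32.2% and 33.2%). Median log2 differences were -0.04 and -0.18. CCNA1, which encodes the cyclin A1 of germ cells and myeloid leukaemia, was at 1.0 CPM in UNT, 48.0 and 47.5 in SCR and 6.46 and 5.04 in ZIP. CASP8AP2, which encodes the histone locus body protein FLASH, was at 65.8 CPM in UNT, 116 and 111 in SCR and 68.7 and 71.0 in ZIP. Both genes were highest in SCR. E2F2 followed the same order of SCR over the rest, at 23.0 CPM in UNT, 37.8 and 38.2 in SCR and 18.0 and 18.0 in ZIP. GON4L was also highest in SCR, at 32.7, 65.7 and 72.6, and 56.7 and 55.5 CPM. Others went differently. CDK2 was highest in UNT at 124 CPM, against 86.5 and 84.4 in SCR and 84.9 and 79.7 in ZIP. YY1 was lowest in SCR, at 240, 206 and 204, and 250 and 250 CPM. NPAT was at 46.4 CPM in UNT, 43.5 and 43.9 in SCR and 36.3 and 36.7 in ZIP.

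Genes of histone mRNA 3′ end processing, export and translation went both ways. Of 17 tested, 4 rose and 10 fell in SCR against UNT (32.7% and 32.2% of all genes). In ZIP against SCR 9 rose and 4 fell (32.2% and 33.2%), and in ZIP against UNT 4 rose and 10 fell (28.5% and 29.7%). SLBP was at 201 CPM in UNT, 154 and 151 in SCR and 165 and 164 in ZIP. It was highest in UNT, fell in SCR against UNT (log2 -0.40 ± 0.04 SE) and rose slightly in ZIP against SCR (log2 0.11 ± 0.03 SE). The cap-binding subunit gene NCBP2 had the same order, at 179 CPM in UNT, 116 and 113 in SCR and 123 and 124 in ZIP. Among the 5 tested genes of histone mRNA decay, 2 rose and 2 fell in SCR against UNT (32.7% and 32.2% of all genes). In ZIP against SCR 1 rose and 1 fell (32.2% and 33.2%).

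Of 22 histone chaperone genes, 7 rose and 9 fell in SCR against UNT (32.7% and 32.2% of all genes). In ZIP against SCR 12 rose and 4 fell (32.2% and 33.2%). IPO4, an importin that carries histones H3 and H4, was at 154 CPM in UNT, 85.9 and 84.1 in SCR and 172 and 166 in ZIP. The SCR libraries were the lowest, unlike those of most histone members. NAP1L1, a chaperone of H2A and H2B, was at 1215 CPM in UNT, 897 and 898 in SCR and 845 and 868 in ZIP.

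The 26 DNA replication and S phase genes did not share the level pattern of the histone sum. They summed to 5700 CPM in UNT, 5330 and 5274 in SCR and 5307 and 5261 in ZIP, with UNT highest and SCR and ZIP overlapping. Of the 26, 7 rose and 12 fell in SCR against UNT (median log2 -0.04), 8 rose and 9 fell in ZIP against SCR (0.01), and 7 rose and 15 fell in ZIP against UNT (-0.15). Over all genes 32.7% rose and 32.2% fell in SCR against UNT. The shares were 32.2% and 33.2% in ZIP against SCR and 28.5% and 29.7% in ZIP against UNT. PCNA, the replication clamp, was at 508 CPM in UNT, 377 and 366 in SCR and 376 and 377 in ZIP. RRM2, a subunit of ribonucleotide reductase, was at 278 CPM in UNT, 469 and 462 in SCR and 322 and 318 in ZIP, highest in SCR. No measure of the share of cells in S phase was used.

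**Figure D4:**
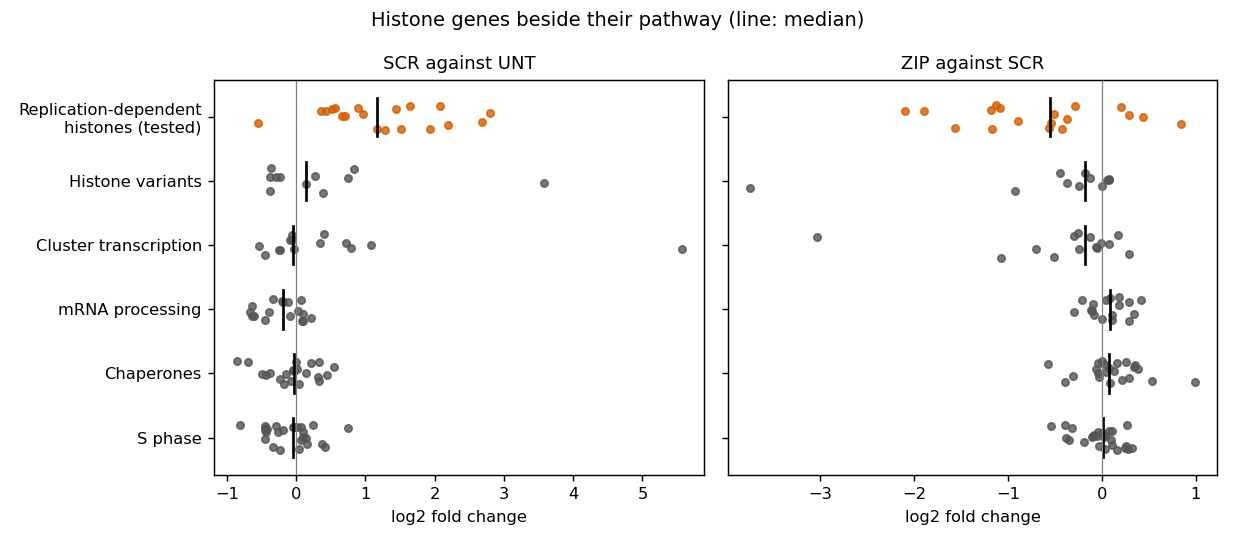
Log2 fold change (horizontal axis) of each gene tested (points) by list (vertical axis) in SCR against UNT (left) and ZIP against SCR (right), with the list median as a vertical line and HIST1H1D left out. The histone line is at 1.17 on the left and -0.55 on the right, and the S phase line at -0.04 and 0.01.

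Markers of promyelocytes and of monocytes differed between the same groups, in opposite directions. Of 8 promyelocyte markers 0 rose and 8 fell in SCR against UNT (32.7% and 32.2% of all genes). In ZIP against SCR 7 rose and 0 fell (32.2% and 33.2%). The 8 markers of monocytes and macrophages summed to 13.2 CPM in UNT, 175 and 176 in SCR and 22.7 and 21 in ZIP. SCR was far above the rest, and 7 of these markers rose and 0 fell in SCR against UNT (32.7% and 32.2% of all genes). In ZIP against SCR 0 rose and 7 fell (32.2% and 33.2%). CD14, a monocyte surface receptor, was at 2.09 CPM in UNT, 54.6 and 53.5 in SCR and 3.49 and 4.17 in ZIP, and SIGLEC1 was at 0 in both ZIP libraries. Summed markers of T, NK and B cells were at 14.0 to 24.9 CPM with MS4A1 at 0. Those of erythroid cells and megakaryocytes were at 2.88 to 5.33 CPM with HBA1, HBB and PPBP at 0, and those of epithelial cells and fibroblasts at 0.289 to 0.947 CPM with KRT19 at 0. The part of the myeloid marker differences in the histone differences was not tested.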

How the data were processed

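Gene expression was measured by RNA sequencing in 5 HL60 libraries. Values are whole-number counts of reads per gene, deposited by the authors without normalization; that they are counts was read from the values. Bowtie2 and featureCounts are named in the submitters' processing notes, whereas the series' design text names CASAVA 1.8.2, TopHat 2, HTSeq and Cufflinks. Which of these made the counts, the genome build, the annotation, the use of strand and any poly(A) selection were not given in the sources used here. Per the labels, total RNA was made into libraries with a TruSeq Small RNA kit. Columns of other samples numbered 0, and 0 entries named no gene. Of 51055 IDs, 44305 matched GENCODE 29 (GRCh38), which gave symbols, coordinates and exon lengths.

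The analysis used edgeR 4.0.16 and limma 3.58.1 (R 4.3.3): filterByExpr (minimum count 10, total 15), TMM scaling, the quasi-likelihood test and Benjamini-Hochberg adjustment over all genes tested, at 0.05. ZIP against SCR used those 4 libraries. Both comparisons with UNT used all 5, on the assumption that UNT varies as the transduced groups do. Residual degrees of freedom numbered 2 in each fit. Members under the filter were not tested, so counts over tested members are descriptions. Standard errors came from the quasi-likelihood F statistic. The test was checked on simulated data. The summed count was tested by exact permutation.

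Values in every library are given for the 20 members with the highest mean CPM and any member that changed at least 2-fold, and for up to 6 genes of a list with the smallest p. The members and lists were chosen with earlier results of these data known. A list of RNAs without a poly(A) tail matched 0 of 8 symbols and was not analysed here. Alternatives were DESeq2 1.42.0 (size factors or its Wald test), library totals, no filter, only the 2 groups compared, a replicate block and leaving out each library. Promoters came from RefSeq tables (GRCh38.p14).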

Additional observations from a re-analysis of the deposited data

How the results depend on the processing

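Precision was limited by low counts: most members had under 100 counts per library, and UNT was a single library. Of the alternatives that gave an adjusted p for single members, 472 kept direction and side of the threshold, 19 gained and 24 lost a call, and 12 changed sign. Alternatives in which a member fell under the filter or had no adjusted p, as for HIST1H1D in SCR against UNT, are not among these. Calls of HIST1H1C, HIST2H2BE and HIST1H2AC in SCR against UNT and in ZIP against SCR, and those of HIST1H2BK in all 3 comparisons, were kept in every alternative run. The cause of the changes below was not tested.

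DESeq2's Wald test called 4 members higher rather than 10 in SCR against UNT and 1 rather than 3 in ZIP against UNT. In ZIP against SCR it called 6 rather than 9 lower. It was run on 27 members in each comparison, rather than 20 in those with UNT and 18 in ZIP against SCR. It also called fewer genes over all. In SCR against UNT it called 3771 of 29050 higher, rather than 5178 of 15832. In ZIP against UNT it called 3105 of 29050 higher, rather than 4507 of 15832. In ZIP against SCR it called 3643 of 28493 lower, rather than 4859 of 14643. The 22 members with no overlapping exon and at most 50% of 50-base windows shared were an alternative chosen after seeing the data. In them the single lower call was 0 in SCR against UNT and 0 in ZIP against UNT, since HIST1H2BK is left out. The median log2 difference was -0.61 with library totals in ZIP against SCR. In SCR against UNT it was 1.45 by DESeq2, 1.33 with library totals, 1.51 without the filter and 1.06 with only the 2 groups. In ZIP against UNT it was 0.70 by DESeq2, 0.70 without the filter and 0.40 with only the 2 groups. Library totals moved the median of all genes in SCR against UNT from 0.02 to 0.13. Ratios of the summed count were 2.10 (SCR over UNT), 0.934 (ZIP over UNT) and 0.446 (ZIP over SCR) with library totals, and 1.36, 0.819 and 0.602 without HIST1H1C.

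Leaving out 1 library at a time gave 0 to 1 members higher, 7 to 10 lower and a median of -0.66 to -0.56 in ZIP against SCR. In SCR against UNT it gave 9 to 12 higher, 1 lower and a median of 1.10 to 1.36, and in ZIP against UNT 2 to 4 higher, 1 lower and 0.33 to 0.53. Same-numbered SCR and ZIP libraries shared only a number (correlation of deviations 0.036 across 14643 genes, 2 pairs). With the replicate block, 10 members fell and 0 rose in ZIP against SCR (median -0.56), HIST1H2BC gaining a call (adjusted p = 0.0494).

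The sign changes were of members that did not pass the test. With 1 library left out, the range in ZIP against SCR was -0.69 to 0.070 for HIST1H4H and -0.039 to 0.49 for HIST4H4, both changing sign without SCR 2. In ZIP against UNT, HIST1H2AC was at 0.0044 with DESeq2 size factors, 0.00048 by DESeq2, 0.047 with library totals, 0.0033 with only the 2 groups, and -0.0042 to 0.0095 with 1 library left out. Likewise HIST1H2AG ranged from -0.11 to 0.32 and HIST1H2BC from -0.081 to 0.39 (both negative without ZIP 2), and HIST3H2A from -0.16 to 0.26 (negative without ZIP 1).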
